A study of Mus musculus with 13 samples.

Results

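Transcripts of 10 genes of the adherens junction were compared between skin tumours of G9a WT and G9a cKO mice. The 10 genes encode 3 classical cadherins (Cdh1, Cdh2 and Cdh3), 2 catenins (Ctnna1 and Ctnnd1), 4 nectins (Nectin1 to Nectin4) and the poliovirus receptor homologue Pvr. They were read by every array probe set whose only gene symbol was 1 of these names, which gave 27 probe sets of the 45037 tested, and 10 genes of 17097. A further 4 probe sets that name Ctnna1 together with another gene were left out.

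Adherens junctions fasten neighbouring epithelial cells to each other and tie the contact to the actin cytoskeleton. Classical cadherins bind cadherins of the next cell through calcium-dependent outer domains, p120-catenin (Ctnnd1) holds them at the membrane, and beta-catenin and alpha-catenin (Ctnna1) link them to actin. Nectins are immunoglobulin-like adhesion molecules that pair with each other or with a different nectin across the contact, and they join actin through afadin. In the epidermis, E-cadherin (Cdh1) is found in all living layers and P-cadherin (Cdh3) mainly in the basal layer, while loss of E-cadherin and gain of N-cadherin (Cdh2) are known from carcinoma cells that become mesenchymal.

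The tumours were squamous skin tumours, 6 from G9a WT mice and 7 from G9a cKO mice (conditional knockout of Ehmt2, which encodes the histone H3 lysine 9 methyltransferase G9a), 1 array each. Both groups received the mutagen DMBA (0.25 mg/ml) and the tumour promoter TPA (0.02 mg/ml), 200 µl in acetone on the shaved back, weekly for 6 weeks from 8 weeks of age, and then TPA for at most 20 weeks. The labels used here name no strain, no driver or cell type of the knockout, and no separate animal for each tumour, so p-values measure only the spread between these samples. Values are log2 expression per probe set, and differences are cKO minus WT.

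Ehmt2 was checked first. One probe set (1460692_PM_at) read 8.03 to 8.61 in WT and 5.87 to 6.12 in cKO tumours, a difference of -2.33 (adjusted p = 1.3e-09), and the groups did not overlap. The other (1426888_PM_at) read 7.29 ± 0.19 (SD, n = 6) and 7.42 ± 0.04 (SD, n = 7), a difference of 0.13 that did not pass (adjusted p = 0.163) but passed after quantile normalization (0.24, adjusted p = 0.0138) and without WT replicate 9 (0.17, adjusted p = 0.0466). Which of them lies within the deleted part of the gene is unknown here, and one that targets a retained part cannot check the labels.

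Features of all arrays bear on every value below. Within a group, adjoining arrays deviate from the mean in opposite ways: in 6 neighbouring pairs, the correlation of their deviations over probe sets was -0.953 to -0.881, and cKO replicate 1 stands alone. A gene was therefore fitted without and with a term for each pair, and "rose" and "fell" are used only where the adjusted p (Benjamini-Hochberg over all probe sets) was under 0.05 in both fits. The fit with the pair term takes its error from differences within pairs, and the spread between pairs of a group does not enter it. Every pair lies within 1 group, and the pairs were recognised by these same opposite deviations. Deviations of cKO replicate 1 from its group mean had an SD of 0.0585 over probe sets, against 0.176 to 0.218 on paired arrays. Its values thus lie close to the cKO mean across the array, and their nearness to pair means below is no separate check. Values of cKO arrays were also less spread (SD 1.82 to 1.87 against 1.90 to 1.93 on WT arrays), and the brightest 10% of genes differed by -0.11 at the median, which quantile normalization brought to 0.022. The level of background was set at 4.29, the upper quartile of 23 nonspecific control probe sets, whose own group differences lay between -0.307 and 0.082. The 18 hybridisation controls all read higher in cKO tumours, by 0.0573 to 0.493. Rises below that are no larger than 0.493 do not exceed the largest of these, and the part of such a shift in them was not tested. The number of arrays limits the precision.

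Of the 10 genes, each represented by the probe set with the highest mean, Nectin1 rose and Cdh1 and Nectin3 fell. That is 3 genes called in both fits, where 26.2% of all genes were. Without the pair term 6 of 10 were called, 1 higher and 5 lower, against 46.5% of all genes (26.1% higher and 20.4% lower). Among the 27 probe sets, 17 were called without the pair term (4 higher, 13 lower) against 47.9% of all probe sets (24.4% higher and 23.4% lower), and 11 in both fits (4 higher, 7 lower) against 27.0% (13.9% higher and 13.1% lower). Lower calls were a larger share of the members than of the whole array, and probe sets of 1 gene share their RNA and are not independent. Cdh1, Cdh3 and Nectin2 lie in decile 9 of level among all genes, and Ctnna1, Ctnnd1, Nectin1 and Pvr in decile 10. The median difference of all genes was -0.11 in each of these deciles, and its part in the lower calls was not tested. Sizes over 2-fold were seen in 4 of 27 probe sets, against 1.59% of all probe sets, and all 4 belonged to Nectin3 and Pvr; by gene, 1 of 10 passed 2-fold, against 1.87% of all genes. The groups did not overlap on 8 of 27 probe sets (3 higher, 5 lower), against 24.2% (13.3% higher and 10.9% lower), and for 2 of 10 genes, against 23.0%. The median difference was -0.037 over the 10 genes and 0.017 over all genes.

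**Figure D1:**
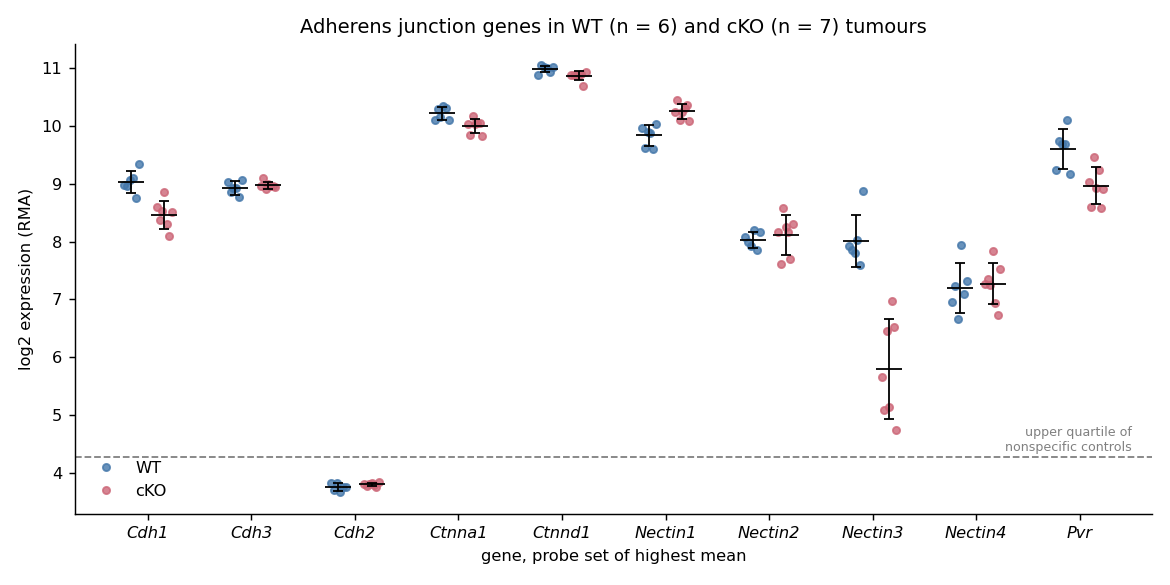
Log2 expression of the 10 members, each by its probe set of highest mean, in WT and cKO tumours. Points are arrays and bars are the mean ± SD. Nectin3 and Nectin1 are the members whose groups do not overlap.

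**Figure D2:**
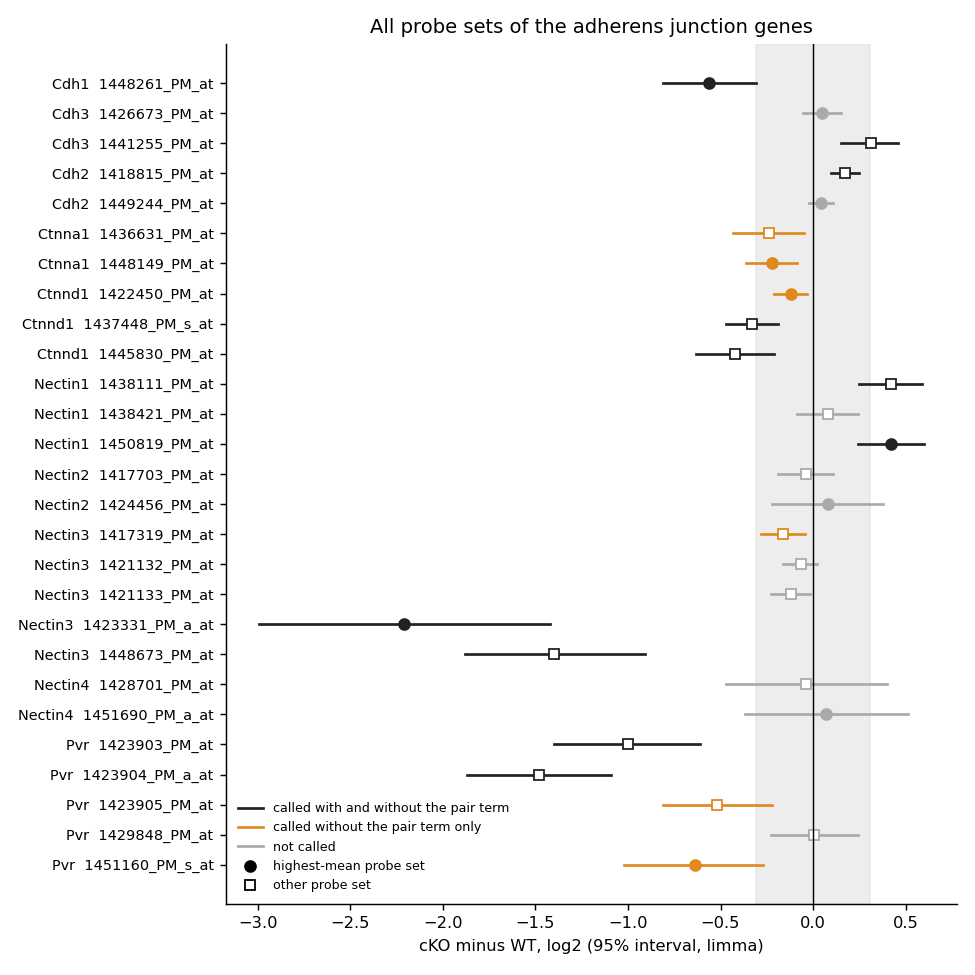
Difference between cKO and WT tumours (log2) for all 27 member probe sets with 95% confidence intervals from the fit without the pair term. Filled circles mark the probe set of highest mean of each gene and open squares the others, black marks calls in both fits, orange calls only without the pair term and grey no call. The grey band spans plus and minus 0.307, the size of the largest difference among nonspecific controls, and the differences farthest outside it are those of Nectin3 and Pvr. Hybridisation controls, with differences of 0.0573 to 0.493, are not part of the band.

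Cdh1, the main cadherin of keratinocytes, fell. Its only probe set (1448261_PM_at) read 8.75 to 9.33 with a median of 9.02 in WT tumours, and 8.09 to 8.86 with a median of 8.51 in cKO tumours. The ranges overlapped by little, since the highest cKO array (replicate 5) read 8.86 and the lowest WT array (replicate 8) read 8.75. Means were 9.03 ± 0.19 (SD, n = 6) and 8.46 ± 0.24 (SD, n = 7), a log2 difference of -0.56 (SE 0.12, 95% interval -0.81 to -0.31), or 1.48-fold lower. The adjusted p was 0.00159, and 0.0198 with the pair term. Averaging within neighbouring pairs gave 8.96, 9.07 and 9.04 in WT, against 8.45, 8.58 and 8.30 in cKO and 8.59 for the lone cKO array, and the pair means did not overlap. The pairs were themselves recognised by opposite deviations, so the closeness of pair means is no measure of precision. In bulk tumours, fewer cells of a type and less RNA per cell cannot be told apart, here and in all results below. With each array scaled to the mean of basal keratinocyte markers the difference was -0.62. After quantile normalization it was -0.4 (limma adjusted p = 0.00752, and 0.0496 when the pair term was added).

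Cdh3, the cadherin of basal keratinocytes, was read by 2 probe sets. The brighter one (1426673_PM_at) read 8.76 to 9.07 in WT and 8.91 to 9.10 in cKO tumours. The difference of 0.049 (95% interval -0.055 to 0.15) did not pass (adjusted p = 0.42), while after quantile normalization it was 0.21 (adjusted p = 0.00199) and after scaling to keratinocyte markers -0.008. The dimmer probe set (1441255_PM_at) rose from 5.19 ± 0.16 (SD, n = 6) to 5.50 ± 0.11 (SD, n = 7), a difference of 0.31 (adjusted p = 0.00376, and 0.0456 with the pair term). Its groups overlapped, and scaled to keratinocyte markers it was 0.25 and lost the call (adjusted p = 0.0814). So in the deposited values Cdh3 had a call on its dim probe set and none on its bright one. After quantile normalization with the pair term in limma this was reversed. The bright one was called (0.21, adjusted p = 0.0335) and the dim one was not (0.30, adjusted p = 0.0612).

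Cdh2, the N-cadherin of neural and mesenchymal cells, stayed at background in all 13 arrays on both of its probe sets. The values of 1418815_PM_at were 3.37 ± 0.06 (SD, n = 6) and 3.54 ± 0.05 (SD, n = 7). Those of 1449244_PM_at were 3.76 ± 0.07 and 3.81 ± 0.03. The first passed the test (adjusted p = 0.00142, and 0.0342 with the pair term) and its groups did not overlap, but not after scaling to keratinocyte markers (adjusted p = 0.354). As every value lies under 4.29, no fold is given, and a gain of Cdh2 to a level above background was not measured.

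The balance of Cdh1 and Cdh3 on the same array differed between the groups. Cdh1 minus Cdh3 was 0.10 ± 0.11 (SD, n = 6), from -0.04 to 0.26, in WT tumours, and -0.51 ± 0.25 (SD, n = 7), from -0.86 to -0.14, in cKO tumours. The groups did not overlap. The shift was -0.61 (2-sided exact permutation p = 0.00117 over 1716 splits of the arrays, adjusted 0.00195 over 5 pairs of members compared, and 0.0024 with the pair term in limma). The permutation treats single arrays as exchangeable and does not account for the mirrored neighbouring pairs, here and below. A difference between probe sets on 1 array is not a ratio of molecules: it shows only that Cdh1 and Cdh3 signals changed unequally. Of the other pairs, Cdh1 minus Cdh2 is not read as a balance, since Cdh2 was at background on all 13 arrays.

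**Figure D3:**
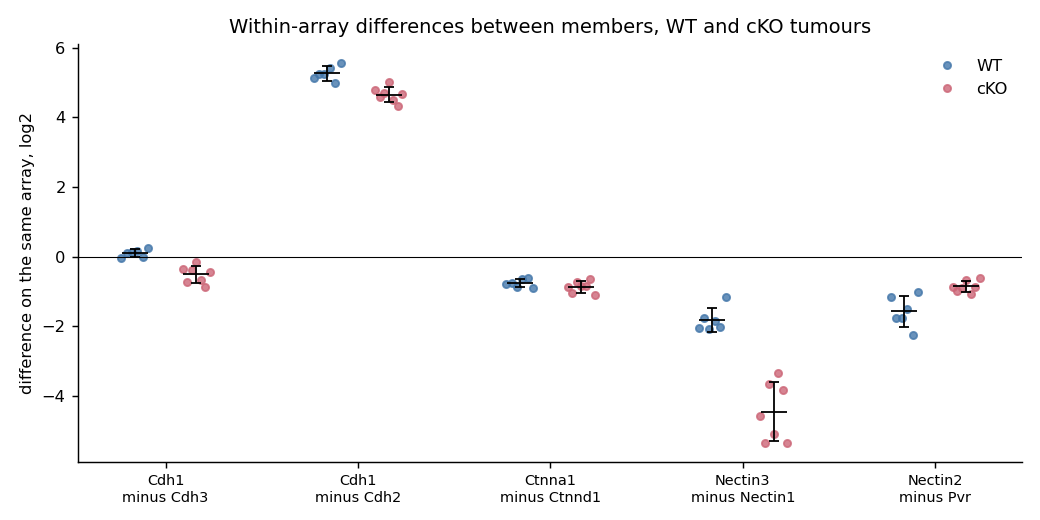
Differences between 2 members on the same array (log2), for the 5 pairs of members compared, in WT and cKO tumours. Points are arrays and bars are the mean ± SD. Cdh1 minus Cdh3 and Nectin3 minus Nectin1 separate the groups, while Ctnna1 minus Ctnnd1 overlaps.

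Neither catenin gave a call in both fits on its brightest probe set. Ctnna1, alpha-catenin, read 10.10 to 10.34 (median 10.22) in WT and 9.82 to 10.16 (median 10.03) in cKO tumours on 1448149_PM_at. The difference was -0.22 (adjusted p = 0.0118), with an adjusted p of 0.0782 with the pair term and a difference of -0.07 after quantile normalization (adjusted p = 0.486). Its second probe set (1436631_PM_at) read 9.26 ± 0.16 (SD, n = 6) and 9.02 ± 0.18 (SD, n = 7), a difference of -0.24 (adjusted p = 0.039, and 0.143 with the pair term). This call was lost without any 1 of 8 arrays (WT replicates 4, 6, 7 and 8 and cKO replicates 2, 6, 8 and 9), with differences of -0.24 to -0.19 and adjusted p of 0.0558 to 0.0842. With the pair term, which leaves the difference of any probe set unchanged by construction, both Ctnna1 probe sets lost their call. After quantile normalization their differences were smaller.

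Ctnnd1, p120-catenin, differed by probe set. On the brightest (1422450_PM_at) WT tumours read 10.88 to 11.04 (median 11.00) and cKO tumours 10.69 to 10.92 (median 10.88), a difference of -0.12 (adjusted p = 0.0255, and 0.121 with the pair term) that was -0.0069 after quantile normalization (adjusted p = 0.893). Without WT replicate 4 or WT replicate 6 it was -0.11 and lost its call (adjusted p = 0.0554 and 0.0529). The dimmer probe sets of Ctnnd1 fell. On 1437448_PM_s_at the values were 9.40 ± 0.13 (SD, n = 6) and 9.07 ± 0.11 (SD, n = 7), a difference of -0.33 with no overlap (adjusted p = 0.00104, and 0.0188 with the pair term). On 1445830_PM_at they were 7.46 ± 0.23 and 7.04 ± 0.14, a difference of -0.42 with overlap (adjusted p = 0.00357, and 0.0391 with the pair term). After quantile normalization both remained lower (-0.17 and -0.31, adjusted p = 0.0379 and 0.0145), though neither was called when the pair term was added to it (adjusted p = 0.151 and 0.0877). The within-array difference Ctnna1 minus Ctnnd1 shifted by -0.10, which did not pass (exact permutation p = 0.227), and with the mean over the probe sets of each gene the shift was 0.058.

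Nectin1, which keratinocytes express strongly and which is an entry receptor of herpes simplex virus, rose. Its brightest probe set (1450819_PM_at) read 9.60 to 10.03 (median 9.88) in WT tumours and 10.08 to 10.44 (median 10.23) in cKO tumours. Every cKO array lay above every WT array, a separation in the upward direction that 14.1% of all genes had. The means were 9.83 ± 0.18 (SD, n = 6) and 10.25 ± 0.13 (SD, n = 7), a difference of 0.42 (95% interval 0.24 to 0.60), or 1.34-fold, with an adjusted p of 0.00108, and 0.0228 with the pair term. A second probe set (1438111_PM_at) rose by the same 0.42, from 9.43 ± 0.19 to 9.85 ± 0.11, again with no overlap (adjusted p = 0.000911, and 0.022 with the pair term). The third (1438421_PM_at) did not pass, with 8.32 ± 0.15 and 8.40 ± 0.14 and a difference of 0.078 (adjusted p = 0.425), though after quantile normalization it was 0.23 (adjusted p = 0.0206).

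Nectin3, the nectin that pairs with Nectin1 across cell contacts, had the largest fall of the 10 genes. Its brightest probe set (1423331_PM_a_at) read 7.59 to 8.88 (median 7.89) in WT tumours and 4.74 to 6.97 (median 5.67) in cKO tumours. No cKO array reached the lowest WT array, a separation in the downward direction that 8.86% of all genes had. Within the cKO group the arrays differed widely, from replicate 9 at 4.74 to replicate 6 at 6.97. The means were 8.01 ± 0.45 (SD, n = 6) and 5.80 ± 0.86 (SD, n = 7), a difference of -2.21 (SE 0.36, 95% interval -2.99 to -1.42), or 4.62-fold lower. The adjusted p was 0.000333, and 0.0116 with the pair term. Averaged within neighbouring pairs the values were closer, 7.89, 7.91 and 8.24 in WT and 5.78, 6.06 and 5.64 in cKO with 5.67 for the lone array. The pairs were recognised by opposite deviations, so such closeness follows from how they were formed and does not locate the wide range within cKO.

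The second probe set of Nectin3 fell too. Values of 1448673_PM_at were 5.38 to 6.50 (median 5.68) in WT and 3.88 to 5.13 (median 4.30) in cKO tumours, with no overlap, and 3 of 7 cKO arrays lay under background. The difference was -1.40 (adjusted p = 0.000271, and 0.0104 with the pair term). The other 3 Nectin3 probe sets were dim and differed little. On 1421133_PM_at the means were 5.16 and 5.04, a difference of -0.12 (adjusted p = 0.0526) that passed without WT replicate 8 (-0.15, adjusted p = 0.016), cKO replicate 6 (-0.14, adjusted p = 0.0341) or cKO replicate 8 (-0.15, adjusted p = 0.0285). On 1421132_PM_at they were 4.37 and 4.30, a difference of -0.068 (adjusted p = 0.197). On 1417319_PM_at all 13 arrays lay under background, with a difference of -0.16 (adjusted p = 0.0272, and 0.127 with the pair term) whose call was lost without WT replicate 4, WT replicate 9, cKO replicate 5 or cKO replicate 9 (-0.15, -0.13, -0.14 and -0.14, adjusted p = 0.0531, 0.0565, 0.0532 and 0.0538). The fall of Nectin3 thus rests on its brightest probe set and 1448673_PM_at. It was not shared by 1421133_PM_at, which read above background on all 13 arrays (5.01 to 5.29 in WT and 4.95 to 5.16 in cKO tumours). Whether these probe sets read different transcripts of Nectin3 was not tested.

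Set against each other on the same array, Nectin3 and Nectin1 moved apart. Nectin3 minus Nectin1 was -1.82 ± 0.35 (SD, n = 6) in WT and -4.44 ± 0.85 (SD, n = 7) in cKO tumours, a shift of -2.63. The groups did not overlap, and the exact permutation p of 0.000583 is the smallest that 1716 splits allow (adjusted 0.00195, and 0.00155 with the pair term, whose 95% interval was -3.62 to -1.64).

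The promoter tables hold the 250 bases before the start site of Nectin3 and of Nectin2, the nectin with the largest change beside one with no call on either probe set. Both are taken from RefSeq (GRCm38.p6), 5′ to 3′ on the gene's strand, with capitals for matches to GGGCGG (the GC box bound by Sp1) or CAGGTG (an E-box bound by Snail and Zeb factors). Both strands were searched, and TGANTCA, the AP-1 motif, was searched as well.
Nectin3, chr16:46496968-46497217, minus strand: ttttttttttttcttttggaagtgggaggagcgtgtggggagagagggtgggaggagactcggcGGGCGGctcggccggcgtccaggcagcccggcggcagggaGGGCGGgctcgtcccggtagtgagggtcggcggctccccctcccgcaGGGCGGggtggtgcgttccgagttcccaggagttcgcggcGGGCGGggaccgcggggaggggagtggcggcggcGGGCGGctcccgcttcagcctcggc
Nectin2, chr7:19749574-19749823, minus strand: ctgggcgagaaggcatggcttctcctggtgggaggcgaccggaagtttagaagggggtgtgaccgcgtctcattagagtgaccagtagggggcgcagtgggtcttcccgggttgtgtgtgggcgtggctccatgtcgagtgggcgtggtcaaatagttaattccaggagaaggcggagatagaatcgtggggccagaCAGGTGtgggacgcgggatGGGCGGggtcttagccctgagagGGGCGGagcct
The Nectin3 window held 5 matches to GGGCGG, beginning 186, 146, 99, 59 and 25 bases before the start site, and no match to CAGGTG or TGANTCA. The Nectin2 window held 1 match to CAGGTG 53 bases before the start and 2 matches to GGGCGG 34 and 11 bases before it. Among 32841 promoter windows, 32.7% held GGGCGG, 17.2% held CAGGTG and 6.75% held TGANTCA. CG dinucleotides numbered 30 in the Nectin3 window, more than in 94.1% of windows, and 16 in the Nectin2 window, more than in 74.6%. These counts describe letters and say nothing of binding or methylation in the tumours.

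Nectin2 and Nectin4 gave no call. Nectin2, which pairs with Nectin3 and binds receptors of T and NK cells, read 7.85 to 8.20 (median 8.03) in WT and 7.62 to 8.57 (median 8.17) in cKO tumours on 1424456_PM_at. The cKO values surrounded the WT values on both sides. The difference was 0.08 (95% interval -0.22 to 0.38, adjusted p = 0.664). Its other probe set (1417703_PM_at) averaged 4.20 and 4.16 and was mostly under background. Nectin4, an epithelial nectin that pairs with Nectin1, read 6.66 to 7.94 (median 7.17) in WT and 6.74 to 7.83 (median 7.27) in cKO tumours on 1451690_PM_a_at, a difference of 0.072 (95% interval -0.37 to 0.51, adjusted p = 0.794). Its second probe set (1428701_PM_at) read 4.46 ± 0.45 (SD, n = 6) and 4.42 ± 0.33 (SD, n = 7), a difference of -0.036 (adjusted p = 0.899). The intervals leave room for changes of either sign in both genes.

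Pvr, a nectin-like adhesion molecule that pairs with Nectin3 and is a ligand of the NK-cell receptor DNAM-1, fell on 2 of its 5 probe sets. On 1423904_PM_a_at WT tumours read 5.33 to 6.37 (median 5.80) and cKO tumours 3.96 to 4.80 (median 4.34), with no overlap and 3 of 7 cKO arrays under background. The difference was -1.48 (adjusted p = 3.7e-05, and 0.00396 with the pair term). On 1423903_PM_at WT tumours read 5.35 to 6.53 (median 5.90) and cKO tumours 4.47 to 5.27 (median 4.90), again with no overlap and a difference of -1.0 (adjusted p = 0.000698, and 0.0153 with the pair term). Both of these are dim probe sets.

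The brighter Pvr probe sets were called only without the pair term. The brightest (1451160_PM_s_at) read 9.17 to 10.10 (median 9.69) in WT and 8.57 to 9.46 (median 8.92) in cKO tumours, a difference of -0.64 (95% interval -1.02 to -0.27), or 1.56-fold, with overlap (adjusted p = 0.00814, and 0.052 with the pair term). The next (1423905_PM_at) averaged 7.27 ± 0.29 (SD, n = 6) and 6.75 ± 0.24 (SD, n = 7), a difference of -0.52 (adjusted p = 0.00756, and 0.0528 with the pair term). Of all 5, only 1429848_PM_at had no call in either fit, with means of 6.87 in both groups and a difference of 0.0044 (adjusted p = 0.977). Averages within neighbouring pairs on the brightest probe set were 9.49, 9.69 and 9.63 in WT and 9.03, 9.08 and 8.74 in cKO, with 9.03 for the lone cKO array. Nectin2 minus Pvr on the same array was -1.57 ± 0.45 in WT and -0.85 ± 0.16 in cKO tumours, a shift of 0.72 (exact permutation p = 0.00117, adjusted 0.00195, and 0.0119 with the pair term) with overlap.

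**Figure D4:**
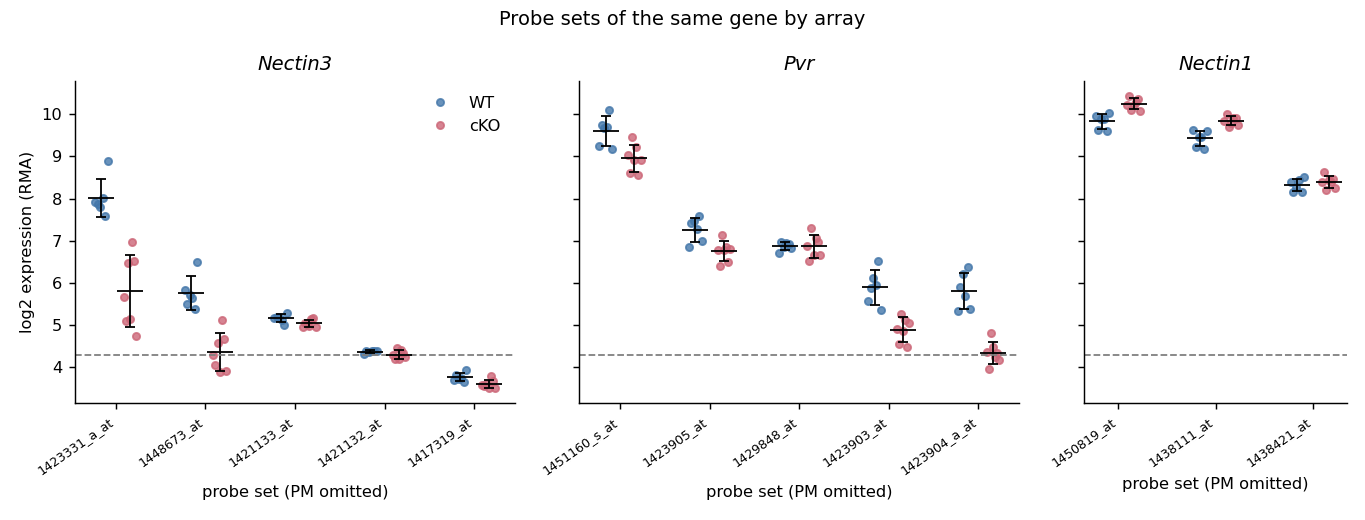
Log2 expression of every probe set of Nectin3, Pvr and Nectin1 in WT and cKO tumours. Points are arrays, bars are the mean ± SD, and the dashed line marks 4.29, the upper quartile of the nonspecific controls. Separation of the groups is seen on 2 Nectin3, 2 Pvr and 2 Nectin1 probe sets.

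The other genes of the junction were read from 5 lists with 73 measured genes, of which 10 were higher and 24 lower without the pair term, and 4 and 13 with it. The median difference over the 73 was -0.043. Among all genes, 26.1% were higher and 20.4% lower without the pair term, and 15.2% and 11.0% with it. The counts of each list below stand beside these shares.

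Catenins and cytoplasmic partners leaned downward. Of 25 measured genes, 1 was higher and 12 were lower without the pair term, 0 and 8 in both fits, and the median difference was -0.26. The array means of the list were 7.91 to 8.10 in WT and 7.66 to 7.83 in cKO tumours, and genes of the 2 highest deciles of level, with mean levels of 8.40 and 10.03, had a median of -0.11 each on these arrays. Lima1, an actin-binding partner of alpha-catenin, fell from 10.27 ± 0.10 (SD, n = 6) to 9.72 ± 0.04 (SD, n = 7), a difference of -0.55 (adjusted p = 8.55e-07, and 0.00108 with the pair term). Its other 4 probe sets had differences of -0.56, -0.41, -0.28 and -0.038. Tjp1, the scaffold ZO-1, fell from 8.12 ± 0.17 to 7.37 ± 0.29, a difference of -0.75 (adjusted p = 0.000429, and 0.0127 with the pair term). Ctnnd2, delta-catenin, fell from 5.48 ± 0.52 to 4.41 ± 0.08 on its brightest probe set (adjusted p = 0.000448, and 0.0138 with the pair term), while a second one, called higher, lay under background on all 13 arrays. Ctnna3, the alpha-catenin of heart and testis, read 4.20 and 4.32, near background, and was called only without the pair term (adjusted p = 0.00852 and 0.0908).

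Among 16 other cadherins, 4 were higher and 3 lower without the pair term, and 2 rose in both fits with none lower. None of these counts exceeds the share of all genes (26.1% higher and 20.4% lower, and 15.2% and 11.0% with the pair term). Cdh4, R-cadherin, rose the most: all 6 WT arrays lay under background (3.97 ± 0.02, SD) and cKO tumours read 5.83 ± 0.13 (SD, n = 7). Against the background level this is at least 2.91-fold higher (adjusted p = 1.37e-10, and 1.69e-07 with the pair term), and on its second probe set, again with 6 of 6 WT arrays under background, at least 2.40-fold (adjusted p = 1.62e-09, and 1.39e-06 with the pair term). Cdh8, a neuronal cadherin, read 4.25 and 4.45 (0.20, adjusted p = 0.000162, and 0.0139 with the pair term), while a probe set of Cdh8 under background on all 13 arrays was called lower. Cdh15 and Cdh20 had small differences of 0.13 and -0.14 that were called only without the pair term, and so were Cdh9 and Cdh26, which were at background in both groups.

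Nectin-like molecules and immune receptors of nectins gave 2 higher and 1 lower of 6 measured genes, and 1 higher in both fits. Cadm3, a nectin-like adhesion molecule of neurons, rose from 5.54 ± 0.08 (SD, n = 6) to 5.77 ± 0.06 (SD, n = 7) on its brightest probe set (adjusted p = 0.000457, and 0.0181 with the pair term), with differences of 0.03 and 0.035 on the others. Cadm1, an epithelial nectin-like molecule, read 9.30 ± 0.29 and 8.78 ± 0.22, a difference of -0.51 called only without the pair term (adjusted p = 0.00611 and 0.0523). A dimmer Cadm1 probe set (6.32 and 5.81) had the same -0.51 and was called in both fits (adjusted p = 0.00374, and 0.0424 with the pair term), and the others had -0.37, called only without the pair term, and -0.068, not called. Crtam, a receptor of Cadm1 on lymphocytes, was mostly under background.

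Of 18 measured genes for cadherin turnover, shedding and phosphorylation, 2 were higher and 6 lower without the pair term, and 0 and 4 in both fits. Yes1, a Src-family kinase, fell from 5.84 ± 0.20 (SD, n = 6) to 4.97 ± 0.13 (SD, n = 7), a difference of -0.87 (adjusted p = 7.47e-06, and 0.00193 with the pair term). Met, the receptor of hepatocyte growth factor, fell from 10.22 ± 0.25 to 9.19 ± 0.34, a difference of -1.03 (adjusted p = 0.000197, and 0.00931 with the pair term). Adam10, a protease that sheds the outer part of E-cadherin, fell from 9.89 ± 0.15 to 9.49 ± 0.09 on its brightest probe set (adjusted p = 0.00038, and 0.0142 with the pair term), with differences of 0.0082 and -0.091 on the others. Adam15, a related protease, had 0.31 on its brightest probe set, called only without the pair term, and its others, all called in both fits, went in opposite directions with 0.62, 0.37 and -0.54 (adjusted p = 0.0454, 0.00535 and 0.0264 with the pair term). Ptprm, a phosphatase of junctions, read 4.74 and 4.92 and was called only without the pair term (adjusted p = 0.0133 and 0.0933).

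Repressors of the E-cadherin gene moved in different directions: of 8 measured, 1 was higher and 2 lower without the pair term, and 1 and 1 in both fits. Snai2, the repressor Slug, fell from 8.16 ± 0.14 (SD, n = 6) to 6.74 ± 0.11 (SD, n = 7), a difference of -1.42 or 2.68-fold (adjusted p = 3.09e-08, and 0.000169 with the pair term). Snai1, the repressor Snail, rose from 4.13 ± 0.08, with all 6 WT arrays under background, to 4.42 ± 0.06, at least 1.09-fold higher (adjusted p = 0.000114, and 0.00978 with the pair term). Zeb1 was split: its brightest probe set read 4.60 and 4.52 and was called lower only without the pair term, while another one rose from 3.97, with all 6 WT arrays under background, to 4.88, at least 1.51-fold (adjusted p = 1.95e-05, and 0.00282 with the pair term).

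**Figure D5:**
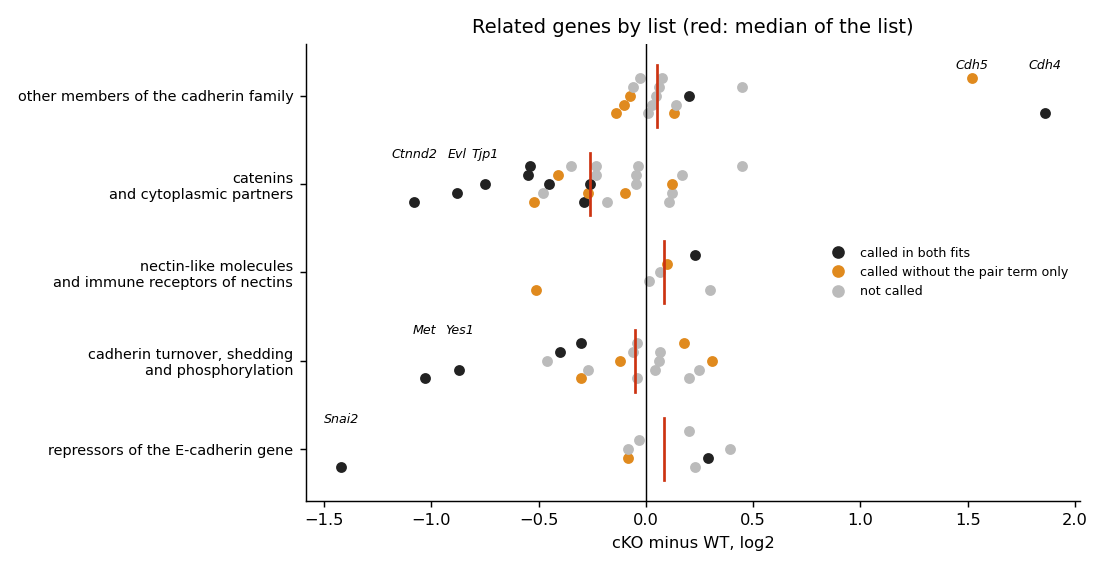
Difference between cKO and WT tumours (log2) of the measured genes in the 5 lists of related genes, each point 1 gene (its probe set with the highest mean) each red line the list median, black a call in both fits, orange a call only without the pair term and grey no call. The medians lie between -0.26 for catenins and cytoplasmic partners and 0.085 for nectin-like molecules and immune receptors.

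Markers of other cell types were counted without the pair term unless both fits are named, where 26.1% of all genes were higher and 20.4% lower. Of the basal keratinocyte list, 9 of 10 genes were measured, 1 was higher and 1 lower, and the array mean of the list lay between 10.98 and 11.29 in WT and between 11.06 and 11.31 in cKO tumours, so the labelled squamous epithelium was present in both. Suprabasal markers lay between 6.60 and 7.07 in WT and between 6.30 and 7.59 in cKO tumours (2 of 10 higher, 1 in both fits). Of the 2 higher genes, Flg was at background in both groups. Dsg1a, called in both fits, lay under background on all 6 WT arrays and 3 of 7 cKO arrays. Fibroblast markers were higher in 7 of 10 genes, all 7 in both fits, with array means of 4.36 to 5.15 in WT and 5.62 to 6.15 in cKO tumours, and Col1a2, Pdgfra and Fap at background in both groups. Endothelial markers were higher in 7 of 10 genes, 6 of them in both fits, with array means of 4.31 to 5.40 and 5.49 to 5.91, and Tek at background in both. Macrophage markers lay between 4.51 and 4.68 in WT and between 4.59 and 5.17 in cKO tumours (3 of 10 higher and 1 lower, 2 and 0 in both fits), and of the 3 higher genes Adgre1 and Cd163 were at background in both groups. T and NK cell markers lay between 4.75 and 4.86 in WT and between 4.82 and 4.94 in cKO tumours (4 of 10 higher and 2 lower, 4 and 1 in both fits), with Cd3e and Ncr1 at background. In both fits, 2 of 6 melanocyte, 0 of 4 Schwann cell, 2 of 6 skeletal muscle, 2 of 4 adipocyte and 2 of 6 mast cell markers were higher and none lower, against 15.2% of all genes higher and 11.0% lower. Of smooth muscle and pericyte markers, 2 of 5 were higher and 1 lower in both fits. Without the pair term the counts higher and lower were 2 and 2 for melanocyte, 2 and 0 for Schwann cell and 4 and 1 for mast cell markers, and the same as in both fits for the others. All 4 higher mast cell genes (Mcpt4, Cpa3, Kit and Ms4a2) and 1 of the 2 higher adipocyte genes (Adipoq) were at background in both groups, as were Tyr, Tyrp1, S100b and Myh4. The part of fibroblast, endothelial and other RNA in the differences above was not tested. The mean of the basal keratinocyte list was 11.13 in WT and 11.19 in cKO tumours.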

How the data were processed

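Values were deposited as log2 expression per probe set after RMA, per the submitters' processing notes. Its version and any step after it are not stated in the sources used here. Probe sets were named from the platform annotation: of 45141, 104 were array controls, 28898 had 1 gene symbol, 551 several and 15588 none. All 13 arrays were used, and correlations between arrays lay between 0.968 and 0.996, with 0 identical pairs.

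For the 45037 tested probe sets, limma 3.58.1 (R 4.3.3; lmFit, eBayes, 2-sided) was used, with Benjamini-Hochberg adjustment over all and a threshold of 0.05, without a filter on dim probe sets. The fit was repeated with a term for neighbouring arrays, whose pairs were found from the deviations of the deposited values. Genes were read by the probe set of highest mean. Within-array differences were tested by exact permutation of single arrays, which does not account for the mirrored pairs. "At least" folds set the brighter group's mean against the dimmer group's mean of, per array, the higher of 4.29 and its own value. The members and the gene lists were chosen with earlier results of these data known. Named genes were all members, Ehmt2, up to 3 called genes of smallest p in each list and direction, and the 4 genes most correlated with Cdh1 and Nectin3. The procedure was tested on simulated data. Alternatives were median centring, quantile normalization, scaling to basal keratinocyte markers, a filter at the 25th percentile, the brightest probe set only, the mean over probe sets, a trended robust prior, array weights (whose estimation stopped before converging), the replicate number as a block, the pair term alone or after quantile normalization, an adjusted p under 0.01, and each array left out. Sequences came from RefSeq (GRCm38.p6). A search that left out a chromosome gave promoters for 4 members (Nectin2, Nectin3, Nectin4 and Ctnnd1), so the source may hold those of others. Figures were drawn with matplotlib 3.10.9.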

Additional observations from a re-analysis of the deposited data

Results flagged for a closer look

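Of 110 groups of values looked at, 5 held an array whose gap to the nearest other array was a large share of the group's range. About 1 in 20 groups is set apart so by chance. Nectin3 (1423331_PM_a_at) read 8.88 in WT replicate 9, where the other WT arrays read 7.59 to 8.02, and Nectin3 minus Nectin1 on that array was -1.14 against -2.08 to -1.76 elsewhere in WT. Ctnnd1 (1422450_PM_at) read 10.69 in cKO replicate 8, against 10.87 to 10.92 in the other cKO arrays. Nectin4 (1428701_PM_at) read 5.10 in cKO replicate 5, against 3.99 to 4.43. Cdh4 (1456397_PM_at) read 6.11 in cKO replicate 1, the array with no neighbour, against 5.74 to 5.84.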

How the results depend on the processing

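Of the member genes, 1 was higher and 5 lower. With the pair term 2 were lower, with quantile normalization 2 were higher and 3 lower, with both 2 and 2, with the mean over probe sets 3 were higher, and at an adjusted p under 0.01 3 were lower. Of member probe sets, 4 were higher and 13 lower. The pair term left 7 lower, or 5 after quantile normalization, and scaling to keratinocyte markers 2 higher. Related genes, 10 higher and 24 lower, gave 4 and 13 with the pair term, 5 and 9 after quantile normalization with it, 16 higher with array weights, 4 higher after scaling to keratinocyte markers and 6 higher at 0.01. The Ehmt2 probe set 1426888_PM_at passed after quantile normalization (0.24). Why these counts moved was not tested, and apart from the pair term the share of all genes called under each setting is not given.

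Replicate numbers 2, 6, 8 and 9 occur in both groups, but deviations of same-numbered arrays correlated at 0.0536, -0.283, -0.128 and -0.0563. No pairing by number was seen in these values, and the labels do not state whether the numbers match samples. With the replicate number as a block, which rests on those 4 numbers, 1 member probe set was higher and 4 lower, 0 member genes were higher and 2 lower, and 2 related genes were higher and 13 lower. The share of all genes called with the block is not given. Nectin3 (1423331_PM_a_at) was -2.21 with an adjusted p of 0.0685.

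Uncalled values turned sign: Cdh3 (1426673_PM_at) was -0.008 after scaling to keratinocyte markers, Cdh2 (1449244_PM_at) -0.0032 with the block and -0.012 after scaling, Nectin2 (1424456_PM_at) -0.054 with the block, Nectin4 (1428701_PM_at) 0.0098 with array weights, Pvr (1429848_PM_at) -0.011 after median centring and with the block and -0.053 after scaling, and Ctnna1 minus Ctnnd1 0.058 (adjusted p = 0.416) with the mean over probe sets. With each array left out in turn, Nectin4 ranged from -0.15 to 0.086 (1428701_PM_at) and from -0.036 to 0.22 (1451690_PM_a_at), Pvr (1429848_PM_at) from -0.066 to 0.061, and Ehmt2 from 0.074 to 0.17 (1426888_PM_at) and from -2.39 to -2.27 (1460692_PM_at). Lower member probe sets numbered 10 to 13, lower member genes 4 to 5, and related genes 10 to 13 higher and 22 to 27 lower. Cdh1 (-0.63 to -0.50), Nectin1 (1450819_PM_at, 0.37 to 0.46) and Nectin3 (1423331_PM_a_at, -2.40 to -2.03) kept their calls in the fit without the pair term when any 1 array was left out. Leaving out arrays was not combined with the pair term. Values under 4.29 were not told from background.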

Other observations

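Over the 13 arrays, the genes whose values followed Nectin3 (1423331_PM_a_at) most closely among 12830 genes above background were Fat1 (Pearson r 0.989), a giant atypical cadherin, Tax1bp3 (0.978), Tspan14 (0.969), a tetraspanin that accompanies Adam10, and Lrrc8c (0.969), a subunit of volume-regulated anion channels. Their differences between cKO and WT tumours were -0.48, -0.61, -0.69 and -0.47, against -2.21 for Nectin3. For Cdh1 the closest were Mtf1 (0.959), a metal-responsive transcription factor, Rragc (0.952), a Rag GTPase, Micall1 (0.949) and Sowahc (0.943). The 2 sets share no gene, and Cdh1 and Nectin3 correlated at 0.646, Pvr and Nectin3 at 0.639, and Cdh1 and Cdh3 at 0.00306. These correlations describe 13 arrays that share the group difference and the mirrored pairs, and no test was made.

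Cdh5, the cadherin of endothelial cells, read 5.19 ± 1.09 (SD, n = 6) in WT and 6.71 ± 0.49 (SD, n = 7) in cKO tumours, a difference of 1.52 called only without the pair term (limma adjusted p = 0.0101 and 0.066). It lay in the same list as Cdh4, and endothelial markers were higher on the same arrays.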
